A study of Mus musculus with 2 samples.

Results

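The genes described here are 9 genes of the cardiac pacemaker and conduction system, namely the hyperpolarisation-activated channel genes Hcn2, Hcn3 and Hcn4, the transcription regulators Shox2, Isl1, Id2 and Etv1, the cell adhesion gene Cntn2 and the calmodulin-binding gene Pcp4. They were taken by GENCODE M21 symbol from the gene tables of a mouse embryonic heart RNA-seq experiment, and all 9 were found among the 43346 Ensembl genes listed there. The experiment holds a single group of 2 libraries, each from a pool of whole hearts of healthy B6NCrl embryos at 15.5 days, male and female together. Replicate 1 pooled the hearts of 78 embryos and replicate 2 those of 62 embryos. No treatment, mutant or second stage was sequenced, so the questions the design allows are how high each gene stood, in which transcript forms, and how far the 2 pools differed. A spread over 2 pools is not a spread between embryos, and the smallest p that flipping the signs of 2 libraries in an exact test can give is 0.5, so no p-value is reported.

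The heartbeat starts in the sinus node, whose cells depolarise on their own, and it travels through the atrioventricular node, the bundle branches and the Purkinje fibres to the working muscle. HCN channels open on hyperpolarisation, bind cyclic AMP and carry the inward pacemaker current. In the mouse, SHOX2 and ISL1 act in the sinus node lineage, while ETV1, ID2, CNTN2 and PCP4 are known from the fast-conducting tissue or the Purkinje network. The nodes and fibres make up a small share of the heart, so in a whole-heart library fewer conduction cells and less RNA per conduction cell cannot be told apart.

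The 3 HCN members share a pore whose selectivity filter is glycine-tyrosine-glycine. The coding bases around that filter are shown first, because the genes are near copies in this stretch and the counts of each rest on reads that tell them apart. Each run is 60 bases of exon 4, read 5′ to 3′ on the coding strand from the mm10 genome and GENCODE M21. Capitals mark the 3 filter codons. The Hcn4 run lies at chr9:58855555-58855614 on the plus strand, the Hcn3 run at chr3:89150991-89151050 on the minus strand and the Hcn2 run at chr10:79728923-79728982 on the plus strand.
Hcn4: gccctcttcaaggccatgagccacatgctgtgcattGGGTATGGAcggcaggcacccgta
Hcn3: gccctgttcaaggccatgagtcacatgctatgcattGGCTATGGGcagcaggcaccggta
Hcn2: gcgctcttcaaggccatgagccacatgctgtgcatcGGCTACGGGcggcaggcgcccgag
Hcn4 and Hcn3 shared 53 of these 60 bases, Hcn4 and Hcn2 shared 52, and Hcn3 and Hcn2 shared 49. The translated runs were closer, with 19 of 20 residues the same for Hcn4 and Hcn3, 19 of 20 for Hcn4 and Hcn2, and 18 of 20 for Hcn3 and Hcn2. Over stretches of 100 bases, the read length that the files' effective lengths imply, no stretch of Hcn2 or Hcn4 was identical to any other M21 gene.

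The libraries held 41221435 estimated gene counts in replicate 1 and 38457396 in replicate 2. The heart label was checked against 8 cardiomyocyte markers, and all 8 passed 1 TPM in each pool, with Actc1, the cardiac actin gene, highest at 10855 TPM in replicate 1 and 9704 TPM in replicate 2. Markers of other tissues differed between the libraries. The summed level of 12 neuron and sympathetic ganglion markers was 24.3 TPM in replicate 1 and 111 TPM in replicate 2, and that of 10 thymocyte and lymphoid markers was 16.6 TPM in replicate 1 and 169 TPM in replicate 2. For 7 liver markers the sums were 51.3 TPM in replicate 1 and 222 TPM in replicate 2, and for 7 lung and foregut markers 131 TPM in replicate 1 and 333 TPM in replicate 2. Spike-in reads numbered 661835 in replicate 1 and 1240532 in replicate 2.

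Levels were compared between genes in TPM, the deposited transcript abundance per length, scaled to a fixed library sum. By mean TPM the order was Id2, Etv1, Shox2, Isl1, Pcp4, Hcn4, Hcn3, Cntn2 and Hcn2. The ranges of the 2 libraries were separate between Id2 and Etv1, between Etv1 and Shox2, and at each step from Hcn4 through Hcn3 and Cntn2 to Hcn2. The neighbours Shox2 and Isl1, Isl1 and Pcp4, and Pcp4 and Hcn4 overlapped, so the middle of the order was not fixed by these libraries. Id2, Etv1, Shox2, Isl1 and Hcn4 reached 1 TPM in both libraries, which is 5 of 9, against 58.2% of 21474 protein-coding genes and 31.9% of all Ensembl genes. Among protein-coding genes at 1 TPM or more in both libraries the median level was 15.8 TPM, which Id2 and Etv1 exceeded and the other 7 did not reach.

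**Figure D1:**
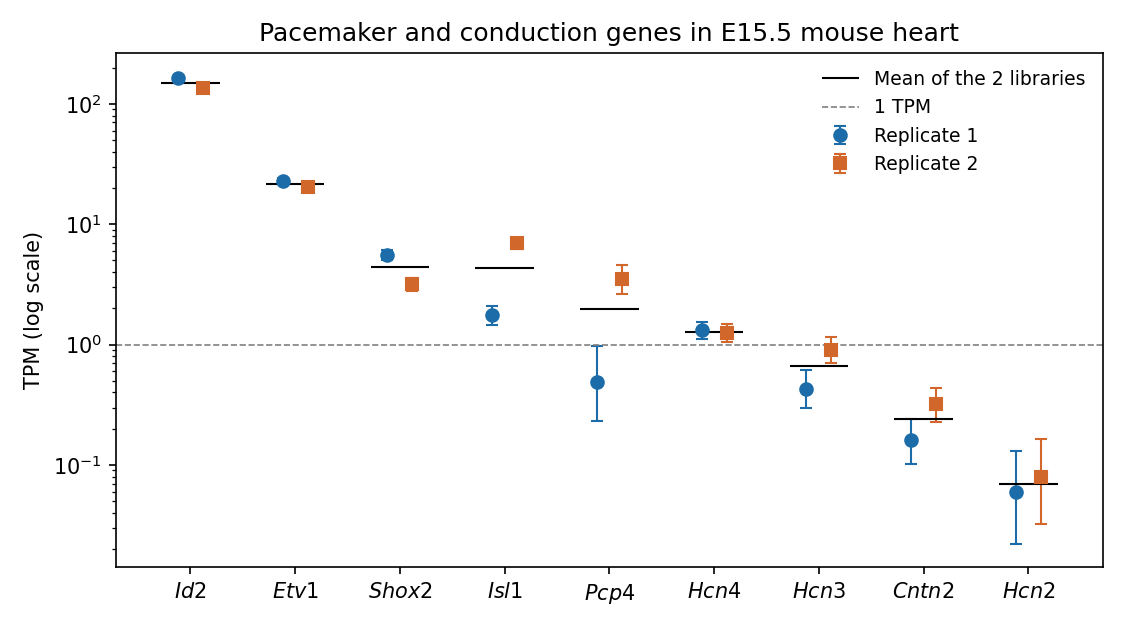
Level of each gene in TPM on a log axis, with circles for replicate 1 and squares for replicate 2. Bars are exact 95% Poisson intervals of the estimated counts scaled to TPM, black lines are means and the dashed line is 1 TPM. The symbols nearly coincide for Id2, Etv1 and Hcn4, and stand apart for Isl1 (1.75 and 6.96 TPM) and Pcp4 (0.49 and 3.49 TPM).

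Hcn4, the main pacemaker channel gene of the sinus node in mouse and human, was the highest of the HCN members. It lies at chr9:58823412-58863175 on the plus strand and had 1.31 TPM in replicate 1 and 1.25 TPM in replicate 2, a mean of 1.28 ± 0.042 TPM (SD, n = 2). These values rest on 157 and 134 estimated counts, and the authors' deposited 95% bounds were 1.09 to 1.495 TPM in replicate 1 and 1.03 to 1.45 TPM in replicate 2. By TPM the pools thus gave nearly the same low level. After TMM scaling, which sets most genes level between the libraries, the log2 ratio of replicate 1 over replicate 2 was 0.30. Its 95% interval from counting error was −0.04 to 0.64. With the libraries scaled by spike-in reads the ratio was 1.13, against a median of 0.84 over all genes compared. The deposited Hcn4 transcript was 3798 bases long, against 6118 bases in M21 with a coding sequence of 3603 bases. Reads from the bases that the shorter model lacks were not counted.

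Hcn3, whose channel responds little to cyclic AMP, lies at chr3:89146074-89160196 on the minus strand. It had 0.43 TPM in replicate 1 and 0.90 TPM in replicate 2, from 32.7 and 64.8 counts. It was 1.87-fold higher in replicate 2, a log2 ratio of −0.90 with an interval of −1.56 to −0.28. With the libraries scaled by spike-in reads, the ratio was −0.07. Of the 100-base stretches of Hcn3, 14.6% also occur in Pklr, the liver and red cell pyruvate kinase gene, which overlaps its end on the opposite strand and had 6.32 counts in replicate 1 and 39.3 in replicate 2. The sources used here do not say if reads were assigned by strand. Both counts were fractional, at 32.68 for Hcn3 and 6.32 for Pklr in replicate 1. In replicate 2 they were 64.75 for Hcn3 and 39.25 for Pklr. Some reads of each gene were therefore ambiguous and shared out, and whether they were shared between these genes was not tested. The authors' deposited posterior SD of the Hcn3 count was 0.49 in replicate 1 and 0.79 in replicate 2. The liver markers were likewise higher in replicate 2, all 7 of 7, and their part in the Hcn3 difference was not tested.

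Hcn2, whose channel responds strongly to cyclic AMP, was near the floor of detection. It lies at chr10:79716634-79736108 on the plus strand and had 0.06 TPM from 6 counts in replicate 1, with an exact Poisson interval of 2.20 to 13.1 counts. In replicate 2 it had 0.08 TPM from 7 counts, with an interval of 2.81 to 14.4. With so few reads a difference between the pools was not detectable at this depth, and Hcn2 was not compared. All 6 reads of replicate 1 were given to the transcript Hcn2-201 and all 7 of replicate 2 to Hcn2-202, which have the same coding length of 2589 bases.

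Hcn4 was above Hcn2 in both libraries. On the log2(TPM + 0.1) scale the lead was 3.14 in replicate 1 and 2.91 in replicate 2, a mean of 3.02 ± 0.16 (SD, n = 2). The Hcn2 level was under the pseudocount in both libraries, so the pseudocount largely sets this ratio and its spread, and the mean was 4.02 with a pseudocount of 0.01 TPM and 1.09 with 1 TPM. That of Hcn4 over Hcn3 was 1.41 in replicate 1 and 0.43 in replicate 2, a mean of 0.92 ± 0.69. By TPM Hcn4 was above Hcn3 in both pools, but by unequal amounts. In replicate 2 the deposited bounds of Hcn3, 0.735 to 1.69 TPM, held those of Hcn4, so the order there was not resolved. In replicate 1 the bounds of Hcn3 were 0.362 to 1.03 TPM, below those of Hcn4. The mean lead over Hcn3 was 0.44 from the authors' deposited posterior means and 0.47 with a pseudocount of 1 TPM.

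A part of the Hcn3 level lay in transcripts that code for no protein. The coding transcript Hcn3-201 held 49.4% of the gene's TPM in replicate 1 and 58.1% in replicate 2, yet 82.5% of its reads in replicate 1 and 91.8% in replicate 2. The retained-intron transcript Hcn3-203 held 50.6% of the TPM in replicate 1 and 5.33% in replicate 2, from 5.73 and 1.13 reads. Another retained-intron form, Hcn3-202, held none in replicate 1 and 36.6% in replicate 2, from 0 and 4.17 reads. TPM divides reads by length, so the few reads on these short forms carried much of the level and went to different forms in the 2 libraries. With Hcn3-201 alone in place of the gene, an alternative chosen after the data were seen, the Hcn4 lead was 1.64 on the log2 scale.

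The transcription regulators were higher than the channels. Id2, an inhibitor that binds E-proteins and keeps them off DNA, acts with TBX5 and NKX2-5 in the ventricular conduction system of the mouse. It lies at chr12:25093799-25097140 on the minus strand and had 165 TPM in replicate 1 and 135 TPM in replicate 2, a mean of 150 ± 21.2 TPM, from 6274 and 4586 counts. This placed it at percentile 96.2 of protein-coding genes. After TMM scaling the log2 ratio of replicate 1 over replicate 2 was 0.52, with an interval of 0.47 to 0.58. That ratio is outside counting error but under the 1.5-fold threshold of 0.58. With spike-in scaling the ratio was 1.36, past that threshold. Id2 is expressed in many cell types beyond the conduction system, and a whole-heart level does not say which cells held it.

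Among the 4 ID genes, Id3 stood above Id2 and the other 2 below. Id3 had 217 TPM in replicate 1 and 242 TPM in replicate 2, Id1 had 51.3 TPM in replicate 1 and 51.9 TPM in replicate 2, and Id4 had 4.42 TPM in replicate 1 and 6.69 TPM in replicate 2. Id2 made up 37.7% of the summed ID level in replicate 1 and 31.0% in replicate 2. Against Id3 its log2 ratio was −0.39 in replicate 1 and −0.84 in replicate 2, so the order was the same in both pools. Of the 6 genes on the list of ID and E-protein partners, all 6 reached 1 TPM in both libraries, against 58.2% of protein-coding genes. After TMM scaling none differed 1.5-fold between the libraries, against 18.9% of all genes compared. With spike-in scaling 4 of the 6 were higher in replicate 1 by that fold, against 13295 of all 17811 genes compared.

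Etv1, an ETS factor of the PEA3 group that takes part in the fast-conducting character of the mouse atrium and Purkinje fibres, lies at chr12:38779380-38870484 on the plus strand. It had 23.0 TPM in replicate 1 and 20.4 TPM in replicate 2, a mean of 21.7 ± 1.89 TPM, from 2268 and 1824 counts. After TMM scaling the libraries were within 1.5-fold, with a log2 ratio of 0.39 and an interval of 0.30 to 0.48. With spike-in scaling the ratio was 1.22, past that fold. Of its 100-base stretches in M21, 10.8% also occur in the processed pseudogene Gm5454. The deposited transcript Etv1-201 was 4307 bases long, against 6576 bases in M21.

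Etv1 held 58.8% of the summed level of the PEA3 group in replicate 1 and 43.1% in replicate 2. Etv5 had 13.2 TPM in replicate 1 and 22.1 TPM in replicate 2, and Etv4 had 2.92 TPM in replicate 1 and 4.79 TPM in replicate 2. Etv1 was therefore above Etv4 in both pools, while its order with Etv5 turned, with a log2 ratio of 0.80 in replicate 1 and −0.12 in replicate 2. All 8 genes on the list of PEA3 factors and RAS-MAPK feedback genes reached 1 TPM in both libraries, against 58.2% of protein-coding genes. After TMM scaling the one that differed 1.5-fold was Spry2, a feedback inhibitor of receptor tyrosine kinase signalling. Spry2 had 59.9 TPM in replicate 1 and 35.6 TPM in replicate 2. Over all genes compared, 18.9% differed by that fold. With spike-in scaling 6 of the 8 were higher in replicate 1, against 13295 of all 17811 genes compared.

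Etv1 reads were spread over several transcripts. Etv1-201 held 39.4% of its TPM in replicate 1 and 41.7% in replicate 2, and Etv1-203 held 34.3% in replicate 1 and 26.3% in replicate 2. The retained-intron form Etv1-212 held 18.0% in replicate 1 and 10.3% in replicate 2, from 472 and 212 reads. Other forms were given reads in 1 pool only. Etv1-205, a coding form, held 0% of the TPM in replicate 1 and 14.99% in replicate 2, from 0 and 122 reads, and the coding form Etv1-202 held 0% in replicate 1 and 6.74% in replicate 2. Etv1-201 has 69 coding bases that Etv1-203 lacks, in exon 9 of 13 at chr12:38852220-38852288 on the plus strand, and they are shown because the coding sequences of these 2 leading forms differ by them, at 1431 and 1362 bases.
Etv1-201 stretch: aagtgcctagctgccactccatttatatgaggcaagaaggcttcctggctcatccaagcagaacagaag

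Shox2, a homeodomain factor that keeps the working-muscle programme down in the mouse sinus node, lies at chr3:66971727-66981771 on the minus strand. It had 5.58 TPM in replicate 1 and 3.18 TPM in replicate 2, a mean of 4.38 ± 1.70 TPM, from 417 and 244 counts. After TMM scaling it was, of the 8 genes compared, the one that was 1.5-fold or more higher in replicate 1. The difference was 1.80-fold, a log2 ratio of 0.84 with an interval of 0.61 to 1.08. Over all genes compared, 5.31% were higher in replicate 1 by that fold after TMM scaling. With spike-in scaling the Shox2 ratio was 1.68, and 4 of the 8 were higher by that fold, against 13295 of all 17811 genes compared. Rsrc1, which starts on the opposite strand inside the Shox2 model, had 1268 counts in replicate 1 and 1133 in replicate 2 and shares 1.63% of the 100-base stretches of Shox2.

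Isl1, a LIM-homeodomain factor of cardiac progenitors and of the sinus node, lies at chr13:116298281-116309689 on the minus strand. It had 1.75 TPM in replicate 1 and 6.96 TPM in replicate 2, a mean of 4.36 ± 3.68 TPM, from 117 and 372 counts. It was 3.01-fold higher in replicate 2, a log2 ratio of −1.59 with an interval of −1.91 to −1.29. The 2 sinus node regulators thus differed between the pools in opposite directions. The log2 ratio of Shox2 over Isl1 within a library was 1.62 in replicate 1 and −1.11 in replicate 2. A ratio within a library does not depend on how the libraries are scaled to each other.

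ISL1 is also known from sympathetic and sensory neurons. After TMM scaling all 12 of 12 neuron and sympathetic ganglion markers were at least 1.5-fold higher in replicate 2, against 13.6% of all genes compared. With spike-in scaling 10 of the 12 were, against 888 of all 17811 genes compared. The median log2 ratio of these markers was −2.64 after TMM scaling, and none was at 0 in either library. The highest was Gap43, a growth cone protein gene, at 11.6 TPM in replicate 1 and 26.3 TPM in replicate 2, and the lowest was Elavl3, a neuronal RNA-binding protein gene, at 0.07 TPM in replicate 1 and 0.60 TPM in replicate 2. Isl2, the nearest relative of Isl1, had 3 counts in replicate 1 and 27 in replicate 2, a log2 ratio of −2.90 with an interval of −5.46 to −1.40. The part of these neuronal RNAs in the Isl1 difference was not tested. The direction of both Isl1 and the marker median was the same when the libraries were scaled by spike-in reads, at −0.76 for Isl1 and −1.80 for the median of the markers.

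Both homeodomain genes had reads in more than 1 coding form. Shox2-203 held 84.1% of the Shox2 TPM in replicate 1 and 77.3% in replicate 2, and Shox2-201 held 4.08% in replicate 1 and 22.7% in replicate 2, from 22.1 and 62.3 reads. The short form Shox2-205 held 11.8% in replicate 1 from 6.74 reads and nothing in replicate 2. Isl1-201 held 75.6% of the Isl1 TPM in replicate 1 and 61.0% in replicate 2, and Isl1-202 held 18.5% in replicate 1 and 27.8% in replicate 2. The most used form was the same in both pools for each gene. A coding stretch that differs between the forms is shown for each gene because it bears on the protein; the forms also differ in bases not shown, and which bases set the read split was not tested. For Isl1 it is 69 bases of exon 5 of 6 at chr13:116301710-116301778 on the minus strand, which Isl1-202 lacks. For Shox2 it is 36 bases of exon 5 of 5 at chr3:66973908-66973943 on the minus strand, which Shox2-203 lacks. The Shox2-203 model also begins inside the coding part of exon 1, which leaves out the opening 238 coding bases of Shox2-201.
Isl1-201 stretch: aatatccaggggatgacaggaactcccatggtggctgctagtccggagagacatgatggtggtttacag
Shox2-201 stretch: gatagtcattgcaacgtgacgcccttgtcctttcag

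**Figure D2:**
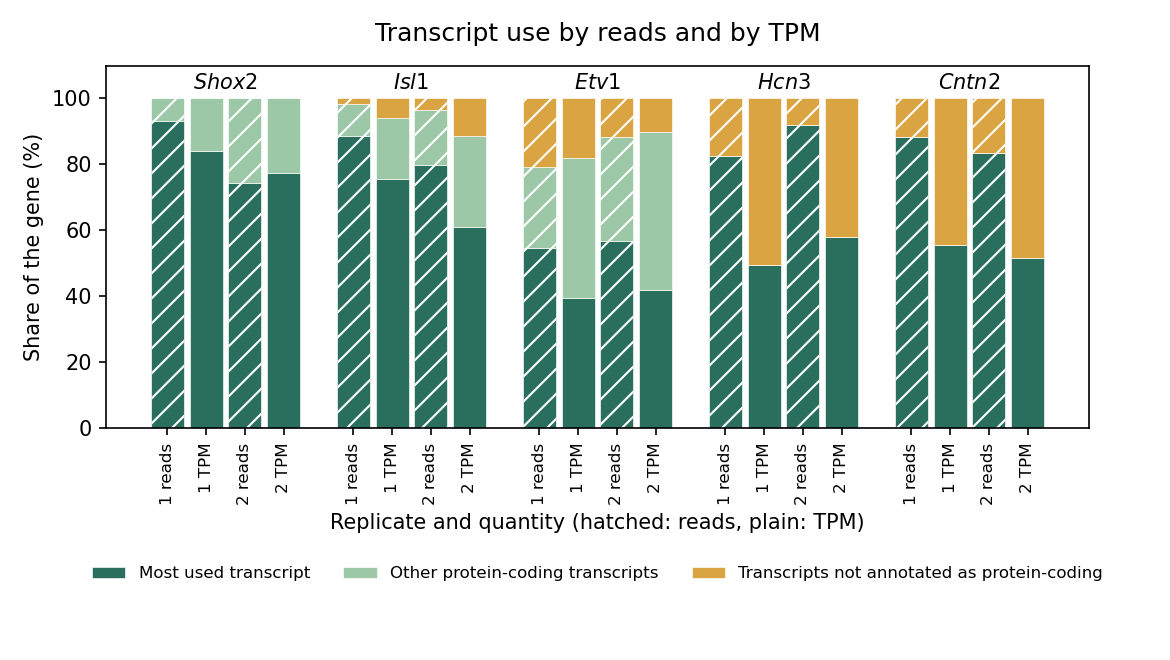
Share of each gene in its most used transcript (by mean TPM share), in other protein-coding transcripts and in transcripts not annotated as protein-coding, in percent. Hatched bars are shares of reads and plain bars are shares of TPM, replicate 1 left of replicate 2 within each gene. For Hcn3 and Cntn2 the non-coding share is far larger by TPM (50.6% and 41.9% for Hcn3) than by reads (17.5% and 8.18%).

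Cntn2 and Pcp4 were low. Cntn2, a cell adhesion protein of axons that also marks the mouse Purkinje network, lies at chr1:132509427-132543256 on the minus strand. It had 0.16 TPM in replicate 1 and 0.32 TPM in replicate 2, from 23.0 and 40.0 counts. It was 1.64-fold higher in replicate 2 after TMM scaling, a log2 ratio of −0.71 with an interval of −1.53 to 0.05, and the sign turned to 0.12 with spike-in scaling. The difference was within counting error. The authors' deposited posterior mean was 0.47 TPM in replicate 1 and 0.67 TPM in replicate 2, above the TPM in both, and the TPM of replicate 1 was below the deposited lower bound of 0.176.

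Part of the Cntn2 TPM lay in shorter forms not annotated as protein-coding, as for Hcn3. Cntn2-201, the coding form of 7177 bases, held 88.3% of the reads in replicate 1 and 83.4% in replicate 2, but 55.6% of the TPM in replicate 1 and 51.6% in replicate 2. The retained-intron form Cntn2-205 held 32.4% of the TPM in replicate 1 and 27.9% in replicate 2, from 1.00 and 1.52 reads. Cntn2-207, annotated for nonsense-mediated decay, held 11.97% of the TPM in replicate 1 and 20.5% in replicate 2.

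Contactins as a family were low in the heart pools. The summed level of Cntn1 to Cntn6 was 1.56 TPM in replicate 1 and 2.07 TPM in replicate 2, of which Cntn2 made up 10.3% in replicate 1 and 15.5% in replicate 2. The highest of the other 5 was Cntn4, at 0.46 TPM in replicate 1 and 0.65 TPM in replicate 2, and the lowest was Cntn5, at 0.10 TPM in replicate 1 and 0.12 TPM in replicate 2. None of the 8 genes on the list of contactins and CNTN2 partners reached 1 TPM in both libraries. After TMM scaling 5 of the 8 were 1.5-fold or more higher in replicate 2 and 1, Cntn3, was past that fold the other way with an interval of −0.06 to 1.30, while with spike-in scaling 3 were higher in replicate 2 and 2 in replicate 1. Over all genes compared, 13.6% were higher in replicate 2 by that fold after TMM scaling. The highest of the 8 by mean was L1cam, an axonal adhesion protein gene, at 0.21 TPM in replicate 1, below Cntn4 there, and 1.92 TPM in replicate 2. The list's median log2 ratio was −0.95 after TMM scaling and −0.12 with spike-in scaling, against 0.01 and 0.84 over all genes compared under the same scalings. The neuron markers were likewise higher in replicate 2, and their part in these values was not tested.

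Pcp4, a small protein that binds calmodulin and is known from Purkinje cells of the brain as well as the cardiac Purkinje network, lies at chr16:96467606-96525793 on the plus strand. It had 0.49 TPM in replicate 1 and 3.49 TPM in replicate 2, a mean of 1.99 ± 2.12 TPM, from 8.66 and 54.9 counts. It was 5.75-fold higher in replicate 2, a log2 ratio of −2.52 with an interval of −3.74 to −1.51, and −1.69 with spike-in scaling. That was the widest gap of the 8 genes compared, and it rests on fewer than 10 counts in replicate 1. Of its 100-base stretches, 26.9% also occur in Igsf5, which overlaps it on the same strand and had 10.3 counts in replicate 1 and 23.1 in replicate 2. The authors' deposited posterior SD of the Pcp4 count was 0.91 in replicate 1 and 0.59 in replicate 2. The part of the overlap and of the neuronal RNAs in the Pcp4 difference was not tested.

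Its relatives did not show that gap. Pcp4l1, the nearest relative, had 38.4 TPM in replicate 1 and 35.3 TPM in replicate 2, above Pcp4 in both libraries. Nrgn, a neuronal calmodulin-binding protein gene and the lowest on the list of PCP4 relatives and calmodulin genes, had 5.29 TPM in replicate 1 and 4.91 TPM in replicate 2. After TMM scaling 6 of the 7 genes on that list were within 1.5-fold and Gap43, also one of the neuron markers, was higher in replicate 2. Over all genes compared, 18.9% were past that fold. With spike-in scaling 6 of the 7 were higher in replicate 1, against 13295 of all 17811 genes compared.

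Set side by side, 8 of the 9 genes had a mean of at least 10 counts and were compared between the libraries. After TMM scaling Shox2 was at least 1.5-fold higher in replicate 1, and Hcn3, Isl1, Cntn2 and Pcp4 were at least 1.5-fold lower there. Id2, Etv1 and Hcn4 were within that fold. With spike-in scaling Cntn2 turned sign and the log2 ratio of Hcn3 was −0.07. Of all 17811 genes compared, 18.9% were past 1.5-fold in either direction and 13.6% were lower in replicate 1. Low counts widen such ratios, so the 6 members with a mean of 10 to 400 counts were also read against 7600 genes in that range, a band chosen after the data were seen. There 5 of 6 were past 1.5-fold, against 37.9% of the genes. The genes were not drawn at random, and nothing particular to them is read from these shares. Spike-in scaling moved the log2 ratio of every gene by 0.83 and scaling by total counts by −0.17. With spike-in scaling 4 of the 8 were higher in replicate 1 by 1.5-fold and 2, Isl1 and Pcp4, were lower, while 13295 of all genes compared were higher and 888 lower.

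**Figure D3:**
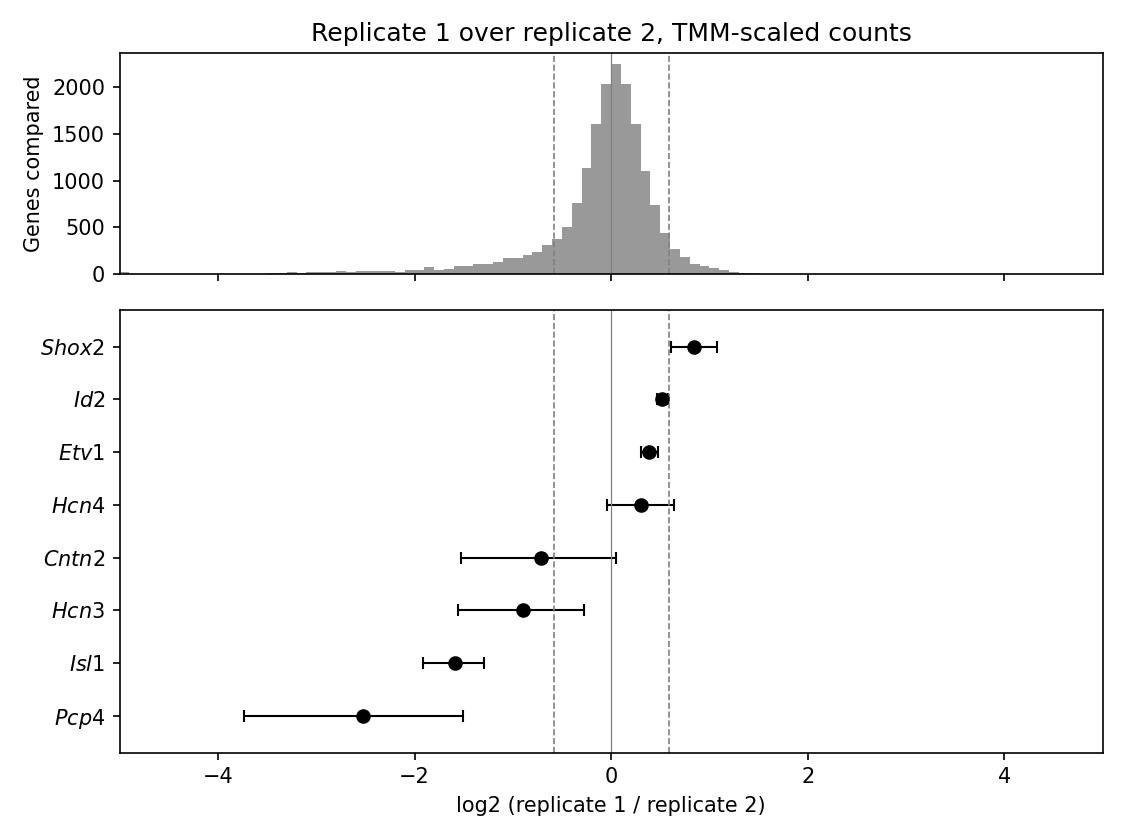
Log2 ratio of replicate 1 over replicate 2 after TMM scaling, for all 17811 genes compared as a histogram with ratios beyond 5 placed in the end bins, and for the 8 compared genes as points with exact 95% intervals that cover counting error only. Dashed lines mark 1.5-fold. Isl1 (−1.59) and Pcp4 (−2.52) lie left of the line with their whole intervals and Shox2 (0.84) lies right of it, while Cntn2 (−0.71) crosses 0 with its interval and turns sign with spike-in scaling.

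Other genes of the conduction system were taken from 2 further lists. After TMM scaling their shares past 1.5-fold are to be read against the 18.9% of all genes compared. With spike-in scaling they are to be read against 13295 higher and 888 lower in replicate 1 of all 17811 genes compared. Of the 19 sinus node regulators and channels on the list, 18 reached 1 TPM in each pool, and the list's median was 7.75 TPM. The highest was Nkx2-5, a cardiac homeodomain factor, at 122 TPM in replicate 1 and 107 TPM in replicate 2. After TMM scaling 1 of the 19 was at least 1.5-fold higher in replicate 1 and 2 were lower, among them Rgs4, a regulator of G-protein signalling, while 16 were within that fold. With spike-in scaling 17 were higher and 1 lower. Of the 18 atrioventricular and Purkinje genes, 17 reached 1 TPM in both, with a median of 13.0 TPM. Their highest was Kcne1, a potassium channel subunit gene, at 134 TPM in replicate 1 and 98.6 TPM in replicate 2, and their lowest was Scn10a, a sodium channel gene, at 0.78 TPM in replicate 1 and 0.82 TPM in replicate 2. Hopx was higher in replicate 1 and Tbx2 lower after TMM scaling, and the other 16 were within 1.5-fold, while with spike-in scaling 16 of the 18 were higher and none lower. The median level of each list was above that of the 9 genes, 1.99 TPM.

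The next lists held partners of the members. Of 9 regulatory partners of HCN channels, 7 reached 1 TPM in both libraries, from Flna, the filamin A gene, at 102 TPM in replicate 1 and 154 TPM in replicate 2, down to Pex5l, the gene of a brain HCN subunit, with 2 counts in replicate 1 and 3 in replicate 2. After TMM scaling Kcne2 and Kcnip2 were higher in replicate 1 by 1.5-fold and Lrmp was lower. Of 10 partners of LIM-homeodomain factors and SHOX2, 6 reached 1 TPM in both, from Gata4, a cardiac zinc-finger factor, at 90.6 TPM in replicate 1 and 91.3 TPM in replicate 2, down to Lhx2 with 4 counts in replicate 1 and 0 in replicate 2. After the same scaling Hand2 was higher in replicate 1 and Isl2 was lower. Lhx9, with 17 counts in replicate 1 and 10 in replicate 2, had a log2 ratio of 0.81, within counting error at an interval of −0.37 to 2.13. Over the 8 lists together 69 of 85 genes reached 1 TPM in both libraries, and of 82 compared 63 were within 1.5-fold, 8 were higher in replicate 1 and 11 lower, with a median log2 ratio of 0.10. With spike-in scaling 64 were higher and 6 lower, against 13295 higher and 888 lower of all 17811 genes compared. With total counts 4 were higher and 15 lower, against 518 higher and 3159 lower of all genes compared.

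Markers of the heart's own tissues were read in the same way. The summed level of the 8 cardiomyocyte markers was 28698 TPM in replicate 1 and 26126 TPM in replicate 2, that of 8 atrial markers 8491 TPM in replicate 1 and 9132 TPM in replicate 2, and that of 6 ventricular markers 14619 TPM in replicate 1 and 11736 TPM in replicate 2. After TMM scaling 2 of 8 cardiomyocyte markers and 1 of 6 ventricular markers were at least 1.5-fold higher in replicate 1, and all 8 atrial, 7 epicardial and 7 endothelial markers were within that fold. With spike-in scaling 8 of 8 cardiomyocyte, 7 of 8 atrial and 6 of 6 ventricular markers were higher in replicate 1 by that fold. So were 7 of 7 epicardial and 7 of 7 endothelial markers. Under the same scaling 13295 of all 17811 genes compared were higher in replicate 1 by that fold. After TMM scaling, 2 of 7 erythroid markers, 1 of 6 macrophage markers and 2 of 5 smooth muscle markers were 1.5-fold or more lower in replicate 1.

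Markers of several other tissues were lower in replicate 1. After TMM scaling all 9 thymocyte and lymphoid markers that could be compared, all 7 liver markers and all 7 lung and foregut markers were at least 1.5-fold lower there. Over all genes compared, 13.6% were. With spike-in scaling 9 thymocyte, 6 liver and 3 lung and foregut markers were lower by that fold, against 888 of all 17811 genes compared. The median log2 ratios of the 3 lists were −3.21, −2.46 and −1.42 after TMM scaling. With spike-in scaling they were −2.38, −1.63 and −0.58. Glial and neural crest markers summed to 17.8 TPM in replicate 1 and 22.5 TPM in replicate 2, and 2 of 6 compared were lower in replicate 1 after TMM scaling, against 0 with spike-in scaling. Brain markers summed to 2.83 TPM in replicate 1 and 3.97 TPM in replicate 2, and of 5 compared after TMM scaling 2 were lower in replicate 1 and 1, Gad2, was higher. Their highest was Slc17a7, a vesicular glutamate transporter gene, at 2.10 TPM in replicate 1 and 2.78 TPM in replicate 2, while Olig2 was at 0 in both libraries and Neurod2 at 0 in replicate 1. Among the 8 genes compared, Hcn3, Isl1, Cntn2 and Pcp4 had the sign of the medians of these markers after TMM scaling. Shox2, Id2, Etv1 and Hcn4 had the other sign. With spike-in scaling Cntn2 turned sign and Hcn3 was at −0.07. Of all 17811 genes compared, 8748 were below 0 after TMM scaling, and a source shared with the markers was not tested.

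**Figure D4:**
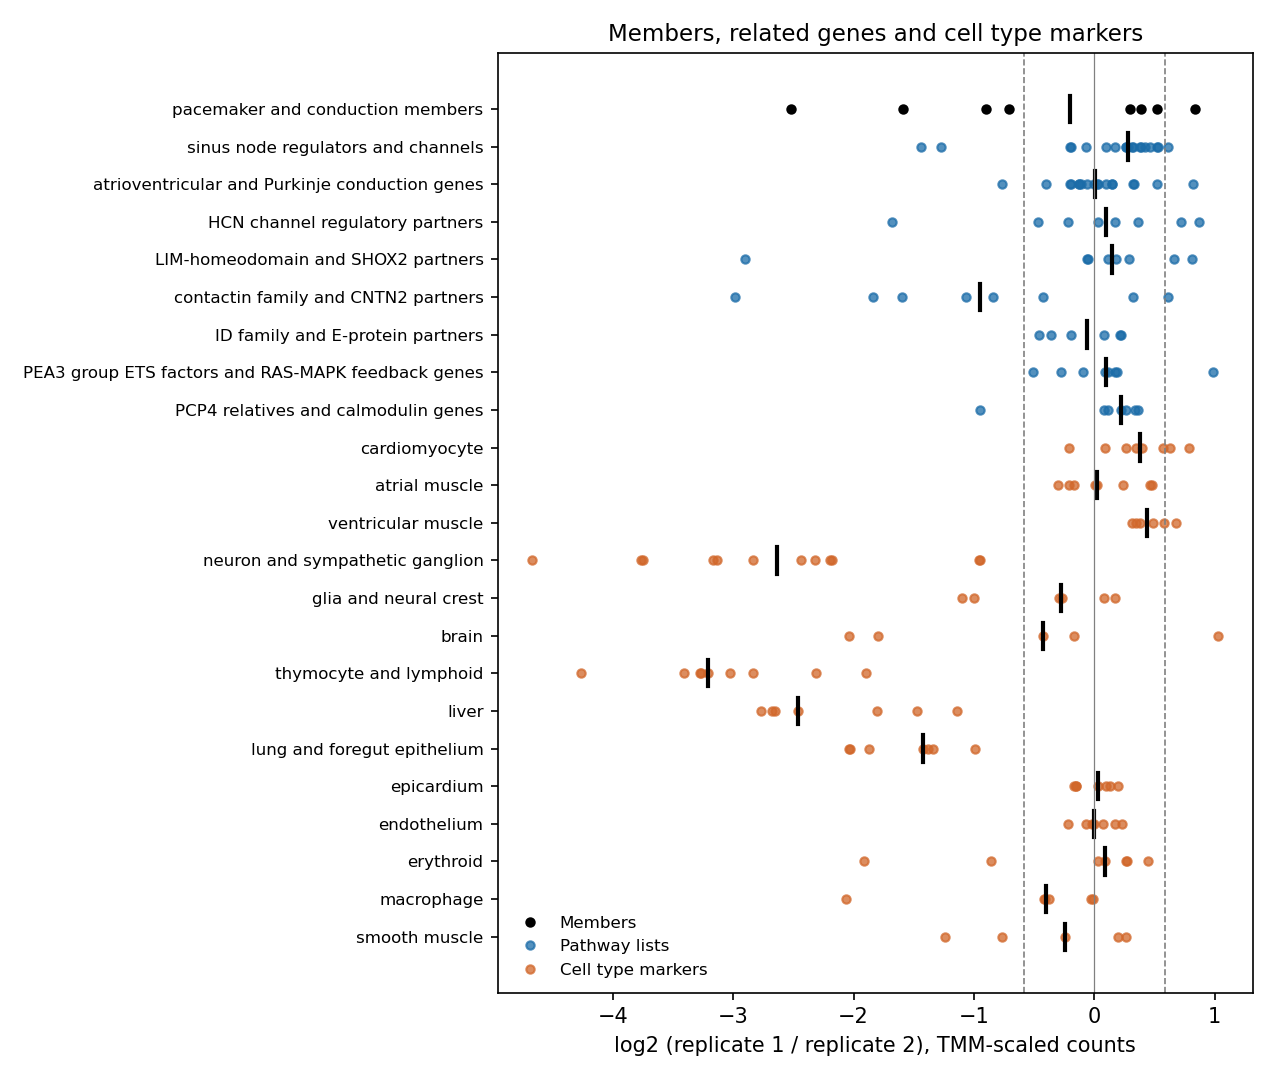
Log2 ratio of replicate 1 over replicate 2 after TMM scaling for the compared genes of each list, with 1 point a gene, black for the pacemaker and conduction members, blue for pathway lists and orange for cell type markers. Thick bars are medians and dashed lines mark 1.5-fold. Neuron (−2.64), thymocyte (−3.21), liver (−2.46) and lung (−1.42) markers lie to the left, and the sinus node (0.28), atrial (0.02) and ventricular (0.44) lists lie around 0; spike-in scaling moves every point by 0.83.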

How the data were processed

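Per the text deposited beside the tables, transcriptome alignments on mm10 were quantified against GENCODE M4. Names of the aligner and quantifier were not given in the sources used. Per the labels' protocols, the mirVana kit was used for extraction, spike-ins were added, and library input was 10 ng of RNA over 200 nt. The authors deposited expected counts, which are estimated reads per gene with ambiguous reads shared out, TPM, which are per length and scaled over all features with spike-ins, posterior mean TPM with 95% bounds, and for each transcript its percent of the gene's TPM. The labels do not say whether counting used strand.

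Gene IDs were matched to GENCODE M21 on the same build, and 884 did not match. Expected counts of Ensembl genes were rounded and scaled by TMM in edgeR 4.0.16; DESeq2 1.42.0 size factors, total counts and spike-in counts were alternatives. Genes with a mean of at least 10 counts were compared at 1.5-fold with a prior of 0.5 counts, and the script was tested on simulated data. Intervals are exact at 95% and cover counting error only. No p-value was computed, because each side holds 1 library. The text names all members, their family relatives, the highest and lowest gene of each pathway list, and transcripts with a mean share of at least 10%; a few of these genes are not reported here. Other genes past 1.5-fold in the pathway lists, and transcripts under that share, were named after their values were seen. The members and lists were chosen with earlier results of these data known.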

Additional observations from a re-analysis of the deposited data

How the results depend on the processing

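The count of genes at 1 TPM in both libraries was 5, and it was 3 at a threshold of 2 TPM, 5 at 0.5 TPM, and 5 to 6 with 1 library left out. The count past 1.5-fold was 5, and it was 2 at a minimum mean of 50 counts and 2 at 2-fold; it was 5 with DESeq2 size factors, total counts, no count filter and deposited TPM. With spike-in scaling it was 6, of which Shox2, Isl1 and Pcp4 were among the 5, Hcn3 and Cntn2 were lost and Hcn4, Id2 and Etv1 were added. The Hcn4 lead over Hcn2 (3.02, log2) was 4.02 with a pseudocount of 0.01 TPM, 1.09 with 1 TPM, 2.84 from posterior means and 4.38 from counts without length, and 2.91 to 3.14 with a library left out. The Hcn4 lead over Hcn3 (0.92) was 1.65 from counts without length and 1.64 with the coding transcript of Hcn3 alone, 0.44 from posterior means, 0.47 with a pseudocount of 1 TPM, and 0.43 to 1.41 with a library left out. The order kept 9 of 9 ranks with posterior means, 7 with TPM over Ensembl genes alone, and 6 to 7 with a library left out. Of 54 recomputed single values, 8 moved by more than 1 SD and 0 reversed. Neither count measures stability. Levels and shares cannot change sign, and with n = 2 a value with a library left out always lies within 1 SD of the mean. The Hcn2-201 share, with a mean of 50%, was 0% without replicate 1 and 100% without replicate 2. From posterior means the Cntn2 level was 0.57 TPM, and the share of its transcript Cntn2-201 was 9.99%. Depth limits Hcn2, Cntn2, Hcn3 and Pcp4. No paired analysis was possible because there is a single group.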
